A study of Homo sapiens with 24 samples.

Results

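The analysis followed 10 genes that had been picked out for their change under knock-down of ZBED2 in bladder cancer cells, out of 58721 genes in the count table. They were chosen by their log2 change with ZBED2 siRNA against the control. A set of 9 had been selected because both ZBED2 siRNAs raised them (CALU, GXYLT1, MPRIP, PRDX1, RAB7A, SKAP2, TPM3, LIPH and YBX3, here the raised genes) and the last, UBAC1, was chosen beside them and went down. All 10 were found by symbol, each as a single Ensembl gene, and all passed the filter on low counts in both lines. Both cell lines, RT112 of luminal and SCaBER of basal/squamous type, are established human bladder cancer lines that were grown in serum, and their transcripts were counted from 3′ end libraries. Cells were transfected in a lipid reagent with a control siRNA (siControl, number 2 in all 4 libraries), with 1 of 2 siRNAs against ZBED2 (siZBED2-1, siZBED2-2), with an siRNA against FOXA1 (siFOXA1, number 1 throughout), or with siFOXA1 together with either ZBED2 siRNA (siFOXA1+siZBED2-1, siFOXA1+siZBED2-2). Each of the 12 groups of line and treatment held 2 libraries, 24 in all.

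ZBED2 is a zinc finger transcription factor tied to basal identity in keratinocytes, and in pancreatic cancer cells it can repress interferon-stimulated genes. FOXA1 is a forkhead factor that opens chromatin at luminal genes. The genes followed here work in different parts of the cell. TPM3 encodes a tropomyosin that lies along actin filaments, MPRIP a scaffold that ties myosin phosphatase and RhoA to actin, and SKAP2 an adaptor of Src family kinases. RAB7A is the GTPase of late endosomes, CALU a calcium-binding protein of the secretory pathway, GXYLT1 a xylosyltransferase that extends the O-glucose of Notch repeats, PRDX1 a peroxide-reducing enzyme, and LIPH a phospholipase that makes lysophosphatidic acid. YBX3 binds RNA and DNA through a cold shock domain. UBAC1 is the non-catalytic subunit of KPC, the ubiquitin ligase that acts on the cell cycle inhibitor p27.

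Total counts per library ran from 4425404 to 6119210, and levels are given as counts per 1000000 counts of a library (CPM), on TMM-scaled library sizes. A change is the log2 fold change of edgeR's quasi-likelihood fit with its standard error (SE), and a gene was called when its p, adjusted over all genes tested in a line (Benjamini-Hochberg), was under 0.05. The labels give the 2 libraries of a group as replicates of an experiment batch and do not say how the batches differ, so the p-values measure the spread between these libraries, which may be technical. The marker sums went with the labelled types of the lines, though not every single marker did. The 10 luminal markers summed to 842 to 1540 CPM in RT112 and to 147 to 213 CPM in SCaBER, where KRT20, UPK1A and UPK3A had no count. KRT20 and UPK3A were near absent in RT112 as well, at means of 0.151 and 0.292 CPM. The 12 basal and squamous markers summed to 504 to 864 CPM in RT112, where KRT6C had no count, and to 2980 to 4950 CPM in SCaBER. In that list KRT16 had a higher mean in RT112 (36.1 CPM) than in SCaBER (25.7 CPM), and TP63 was near level (15.2 and 17.4 CPM). The targets were read as a check of the labels. In RT112 FOXA1 stood at 42.2 and 41.3 CPM under siControl and at 6.84 and 9.46 CPM under siFOXA1, and in SCaBER at 3.78 and 5.59 CPM and at 0.816 and 1.36 CPM, a difference that missed the threshold (adjusted p 0.272). ZBED2 stood at 22.2 and 16.9 CPM in RT112 and at 19.1 and 19.2 CPM in SCaBER under siControl. With siZBED2-1 it stood at 2.38 and 0 CPM and at 2.40 and 7.34 CPM, and with siZBED2-2 at 7.33 and 6.25 CPM and at 8.86 and 16.0 CPM. The fall of ZBED2 with siZBED2-1 was called in RT112 (log2 −3.97, adjusted p 0.00624) and SCaBER (−1.96, adjusted p 0.00848). With siZBED2-2 it was called in neither RT112 (−1.52, adjusted p 0.903) nor SCaBER (−0.61, adjusted p 0.844). At 16.0 CPM, the library labelled SCaBER siZBED2-2 replicate 2 kept most of its ZBED2. That library enters the choice of the genes but no test reported on siFOXA1 other than through the estimate of spread.

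The knock-downs against siControl chose the genes, so their values there are a description with no test. All 9 raised genes were higher and UBAC1 was lower with each ZBED2 siRNA in both lines, and each siZBED2 library alone lay outside both siControl libraries of its line. Log2 changes of the 9 ran from 0.45 (PRDX1) to 2.57 (LIPH) with siZBED2-1 in RT112 and from 0.56 (YBX3) to 1.47 (CALU) with siZBED2-2. In SCaBER they ran from 0.57 (PRDX1) to 1.2 (YBX3) and from 0.25 (LIPH) to 1.11 (MPRIP). Over all genes, 8.8% were called with siZBED2-1 and 0.166% with siZBED2-2 in RT112 (2.37% for the mean of both), and 4.65% and 0.625% in SCaBER (1.83% for the mean). With the replicate number as a block these counts rose by more than 1.5 times for siZBED2-2, from 22 to 44 genes in RT112 and from 82 to 125 in SCaBER, and for the mean in RT112, from 314 to 486. Of 11763 genes tested in both lines, 3140 moved in one direction with both siRNAs in both lines, and 8 were called in all 4 comparisons, all of them higher. Those 8 were the raised genes other than LIPH and YBX3, and RPLP0, a ribosomal protein gene that was not among the genes followed. PRDX1 lay just inside this limit, with a largest adjusted p of 0.0473 over the 4 comparisons, and GLTP (0.0597) and SON (0.0792) just outside. YBX3, UBAC1 and LIPH did not meet it, with largest adjusted p of 0.354, 0.687 and 0.963, although their direction was the same in all 4.

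The place of the control among the 6 treatments was then examined. In each line, 8 of the 9 raised genes had their lowest levels in the 2 siControl libraries, below all 10 libraries with any other siRNA, and YBX3 was the exception. Over all genes tested this held for 3.56% in RT112 and 3.48% in SCaBER. The siZBED2 libraries among the 10 chose the genes, so part of this order was set by the choice. The share over all genes carries no such choice. UBAC1 had its highest levels in the siControl libraries of both lines. The same 8 genes were thus higher under siFOXA1, by 0.44 (TPM3) to 2.64 (LIPH) in RT112 and by 0.39 (PRDX1) to 1.63 (SKAP2) in SCaBER. YBX3 was lower under siFOXA1, by −0.62 and −0.71, and UBAC1 by −0.98 and −1.41. ZBED2 itself was low under siFOXA1 in RT112 (5.43 and 1.51 CPM) and stood at its siControl level in SCaBER (20.4 and 19.1 CPM under siFOXA1, 19.1 and 19.2 CPM under siControl). The part of ZBED2 in these differences was not tested. These differences rest on the siControl libraries that also chose the genes and are given without a test. All siControl libraries carried the same control siRNA. For these 8 genes a low level under this siRNA cannot be told apart from a raised level under the others. For UBAC1 a high level under this siRNA cannot be told apart from a lowered level under the others.

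**Figure D1:**
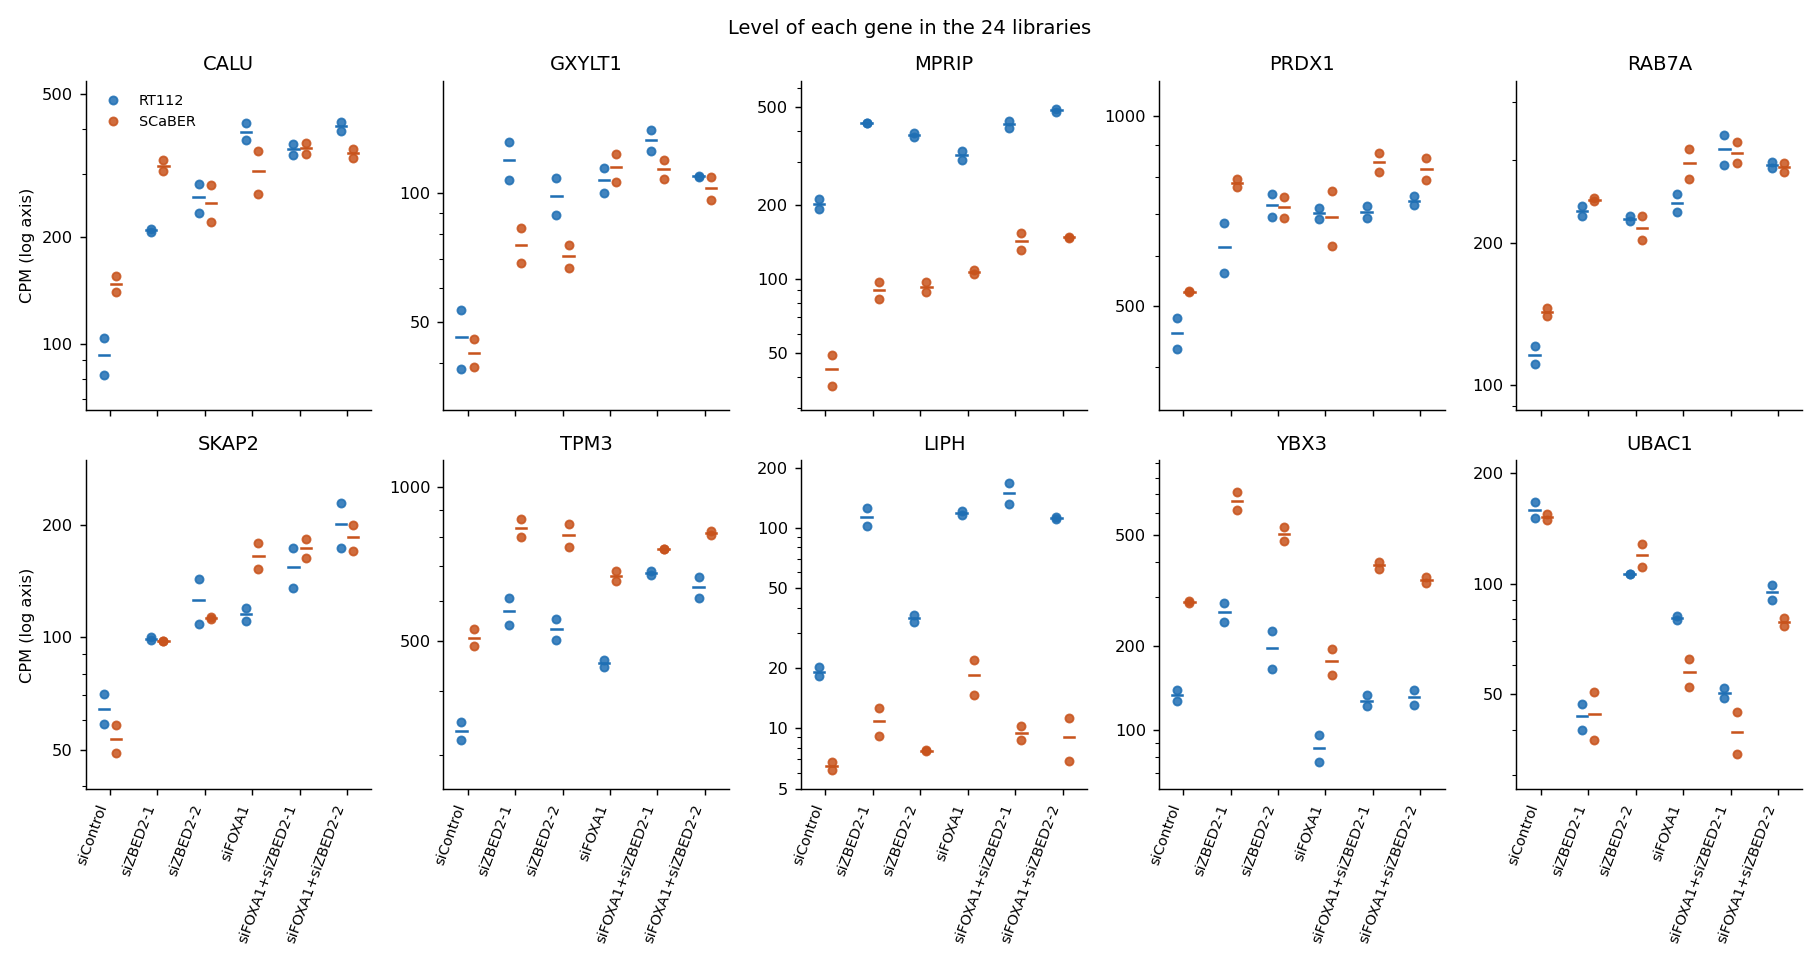
Level of each of the 10 genes in CPM (log axis) in every library of RT112 and SCaBER by siRNA treatment. Points are single libraries and short lines the mean of 2, and siControl is the lowest treatment for all raised genes but YBX3 and the highest for UBAC1.

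The addition of a ZBED2 siRNA to siFOXA1 shares no library with the comparisons against siControl and was used as the test. The genes were chosen with earlier results of these data known, so their choice may not be independent of it. In RT112, 2 of the 10 genes were called with siZBED2-1 added (2.55% of all genes were called), 3 with siZBED2-2 (1.25%) and 4 with the mean of both (1.96%). TPM3, MPRIP, SKAP2 and YBX3 rose, and UBAC1 fell with siZBED2-1 alone. In SCaBER, YBX3 was the single gene called, higher with either siRNA and with their mean, where 2.73%, 3.66% and 3.84% of all genes were called. The 9 raised genes had a median log2 change for the mean of both siRNAs of 0.32 in RT112 and 0.18 in SCaBER, against −0.01 over all genes in either line. All 4 double knock-down libraries lay above both siFOXA1 libraries for MPRIP, RAB7A, SKAP2, TPM3 and YBX3 in RT112, 5 of 9, and for MPRIP, PRDX1, TPM3 and YBX3 in SCaBER, 4 of 9, against 10.6% and 10.8% of all genes. LIPH in SCaBER lay the other way, with all 4 double knock-down libraries below both siFOXA1 libraries, as did 1472 of 13129 genes there. None of the raised genes did so in RT112, where 1270 of 13264 genes did. CALU, GXYLT1, LIPH, PRDX1 and RAB7A, 5 of the 9, were called in neither line. Both siRNA contrasts and their mean use the same 2 siFOXA1 libraries. With the replicate number as a block, 4 of the 10 genes were called in each of the 3 comparisons in RT112, where 552, 336 and 444 genes were called in place of 338, 166 and 260. In SCaBER 1, 1 and 3 of the 10 were called with the block. Without siFOXA1 replicate 2 none of the 10 genes was called in any of the 3 comparisons in RT112, where the mean of both siRNAs then called 30 genes, and 0 were called with siZBED2-1 without siFOXA1 replicate 1 or siFOXA1+siZBED2-1 replicate 2, and 0 with siZBED2-2 without siFOXA1+siZBED2-2 replicate 2.

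Several measures moved with this comparison. In RT112 ZBED2 was already low under siFOXA1 alone, as given above, and stood at 0.843 to 2.63 CPM in the double knock-downs, and this difference did not pass the test (log2 −1.03, SE 0.75, adjusted p 0.573). In SCaBER ZBED2 stood at 3.69 and 1.70 CPM with siZBED2-1 added and at 9.88 and 11.9 CPM with siZBED2-2 added. For the mean of both siRNAs it fell by 1.85 on the log2 scale (SE 0.38, adjusted p 0.00256). With siZBED2-1 alone added the fall was called (log2 −2.85, SE 0.50, adjusted p 0.000537), and with siZBED2-2 it was not (log2 −0.85, SE 0.44, adjusted p 0.366). Mitochondrial transcripts made up 21.45% and 22.7% of counts under siFOXA1 and 18.6% to 20.6% in the double knock-downs of RT112, and 12.9% and 12.5% against 9.295% to 11.75% in SCaBER. The part of these shares in the changes was not tested.

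**Figure D2:**
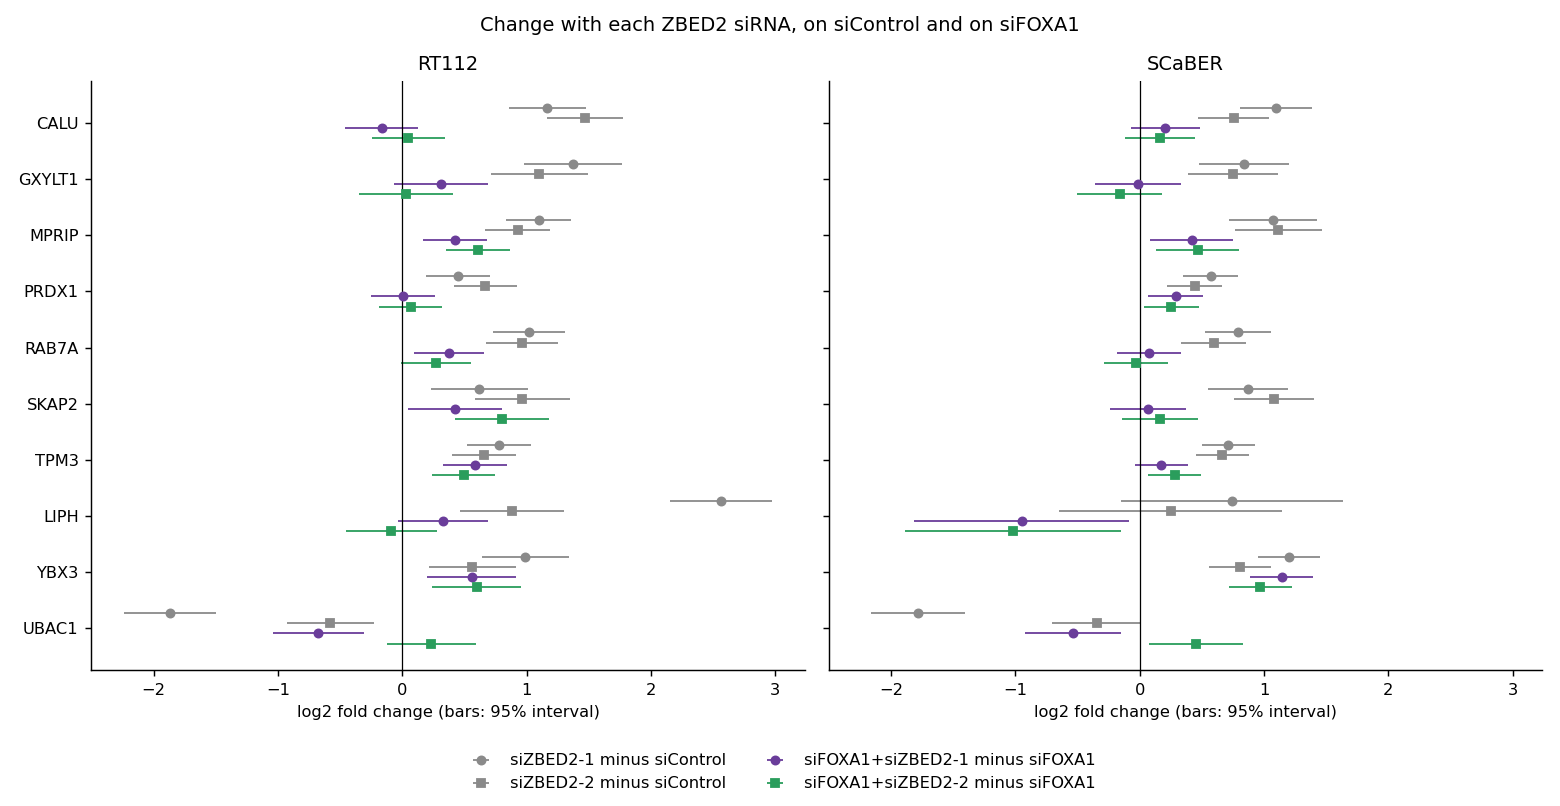
Log2 fold change of each gene with siZBED2-1 and siZBED2-2, against siControl (grey, the comparison that chose the genes) and on siFOXA1 (colour), in RT112 and SCaBER, with 95% intervals. On siFOXA1 most of the raised genes lie nearer 0 than on siControl, and YBX3 in SCaBER lies at 1.14 and 0.97. The choice of the genes favours large values on siControl, so this order does not show a weaker change on siFOXA1.

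TPM3 (chromosome 1, 154155308 to 154192100 on GRCh38, as all positions here) was called in all 3 comparisons on siFOXA1 in RT112. Its RT112 levels were 322 and 348 CPM under siControl, 608 and 538 with siZBED2-1, 553 and 504 with siZBED2-2, 445 and 461 with siFOXA1, 672 and 686 with siFOXA1+siZBED2-1 and 608 and 668 with siFOXA1+siZBED2-2. Each double knock-down library thus stood above each siFOXA1 library. The gene rose by 0.58 with siZBED2-1 added (SE 0.12, adjusted p 0.00867) and by 0.49 with siZBED2-2 added (SE 0.12, adjusted p 0.0466), and by 1.45-fold over both (log2 0.54, SE 0.11, adjusted p 0.00858). With siZBED2-1 added the call was lost without siFOXA1 replicate 1 or 2 (adjusted p 0.051 each) or siFOXA1+siZBED2-1 replicate 2 (0.0629), and with siZBED2-2 added under RLE scaling (0.0505), without siFOXA1 replicate 1 (0.116) or 2 (0.244) and without siFOXA1+siZBED2-2 replicate 1 (0.0985) or 2 (0.303). Without siFOXA1 replicate 1 or 2 the value over both was 0.51 (adjusted p 0.0527) or 0.56 (adjusted p 0.111), in a range of adjusted p from 4e-06 to 0.111 over 16 alternatives. In SCaBER TPM3 stood at 489 and 528 CPM under siControl, at 866 and 799 with siZBED2-1, at 846 and 764 with siZBED2-2, at 654 and 685 with siFOXA1, at 755 and 756 with siFOXA1+siZBED2-1 and at 807 and 821 with siFOXA1+siZBED2-2. All 4 double knock-down libraries again lay above both siFOXA1 libraries, at a difference that was not called (0.23, SE 0.09, adjusted p 0.188). With siZBED2-2 added edgeR did not call the rise (0.28, SE 0.10, adjusted p 0.153) and DESeq2 did (0.27, adjusted p 0.0349). The processed pseudogenes of TPM3 that were listed took few reads, at most 621 over all 24 libraries (TPM3P9).

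MPRIP (chromosome 17, 17042457 to 17192643) had RT112 levels of 213 and 193 CPM under siControl, 434 and 434 with siZBED2-1, 380.2 and 392 with siZBED2-2, 332 and 305 with siFOXA1, 442 and 413 with siFOXA1+siZBED2-1 and 480.1 and 492 with siFOXA1+siZBED2-2. In SCaBER it stood at 36.6 and 49.3 CPM, 82.8 and 97.6, 97.1 and 88.9, 109 and 105, 154 and 132, and 148 and 147, in the same order of treatments. In both lines all double knock-down libraries were above siFOXA1, and in SCaBER they were the highest of the 12. In RT112 MPRIP rose with siZBED2-2 added (0.61, SE 0.13, adjusted p 0.0133) and over both siRNAs (0.52, SE 0.11, adjusted p 0.0134). With siZBED2-1 added it was 0.42 (SE 0.13, adjusted p 0.0721). The adjusted p of that change was 0.0349 with the replicate number as a block and 0.0051 in DESeq2. In SCaBER the value over both was of like size, 0.44 (SE 0.14), and missed the threshold at an adjusted p of 0.0844, or passed it at 0.0456 with the block. The RT112 call with siZBED2-2 added was lost without siFOXA1 replicate 2 (adjusted p 0.213) or siFOXA1+siZBED2-2 replicate 1 (0.0549) or 2 (0.0921). Without siFOXA1 replicate 2 the RT112 value over both was 0.45 (adjusted p 0.279; range over 16 alternatives 1.26e-05 to 0.279).

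SKAP2 (chromosome 7, 26654770 to 26864590) had RT112 levels of 58.45 and 70.5 CPM under siControl, 98.15 and 100.4 with siZBED2-1, 109 and 143.5 with siZBED2-2, 119.9 and 111 with siFOXA1, 136 and 174 with siFOXA1+siZBED2-1 and 173.5 and 229 with siFOXA1+siZBED2-2. The highest library was a double knock-down with siZBED2-2, while its replicate stood level with the higher library of siFOXA1+siZBED2-1. SKAP2 rose with siZBED2-2 added (0.80, SE 0.18, adjusted p 0.0264) and over both siRNAs (0.61, SE 0.16, adjusted p 0.0455), and stood at 0.42 with siZBED2-1 added (SE 0.18, adjusted p 0.273). The call with siZBED2-2 added was lost without siFOXA1 replicate 2 (adjusted p 0.216) or siFOXA1+siZBED2-2 replicate 2 (0.292). The call over both was lost without siFOXA1 replicate 1 (0.67, adjusted p 0.0756) or 2 (0.55, 0.383), siFOXA1+siZBED2-1 replicate 2 (0.52, 0.125) or siFOXA1+siZBED2-2 replicate 2 (0.505, 0.143), with adjusted p from 0.00973 to 0.383 over 16 alternatives. In SCaBER the levels were 48.9 and 58.1 CPM, 97.6 and 98.0, 114 and 112, 152 and 179, 163 and 183, and 171 and 200.4 in the same order of treatments. Here siFOXA1 alone reached the range of the double knock-downs, and the added ZBED2 siRNAs left a difference of 0.12 (95% interval −0.15 to 0.38).

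RAB7A (chromosome 3, 128726183 to 128814798) stood in RT112 at 121 and 110.5 CPM under siControl, 228 and 239 with siZBED2-1, 223 and 228 with siZBED2-2, 233 and 255 with siFOXA1, 293 and 340.2 with siFOXA1+siZBED2-1 and 298 and 289 with siFOXA1+siZBED2-2. Its double knock-down libraries were the 4 highest of the line, yet the change over siFOXA1 was not called (0.32, SE 0.12, adjusted p 0.197). In SCaBER it stood at 146 and 140.3 CPM, 246 and 249, 203 and 229, 274.5 and 317, 296 and 328, and 283 and 297. Libraries with siFOXA1 overlapped there with and without a ZBED2 siRNA (0.02, 95% interval −0.20 to 0.25).

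CALU (chromosome 7, 128739359 to 128773400) was not called on siFOXA1 in either line. Its RT112 levels were 104 and 81.7 CPM under siControl, 211 and 206 with siZBED2-1, 281 and 233 with siZBED2-2, 373 and 414 with siFOXA1, 364 and 337 with siFOXA1+siZBED2-1 and 395 and 419 with siFOXA1+siZBED2-2. In SCaBER they were 139.9 and 155 CPM, 327 and 304, 278 and 220, 348 and 263, 365 and 341, and 353 and 331. In both lines the double knock-down and siFOXA1 libraries overlapped. The added ZBED2 siRNAs left a difference of −0.06 in RT112 (95% interval −0.31 to 0.20) and of 0.18 in SCaBER (−0.06 to 0.43).

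GXYLT1 (chromosome 12, 42081845 to 42144874) was likewise not called on siFOXA1 in either line. In RT112 it stood at 53.2 and 38.9 CPM under siControl, 107 and 131 with siZBED2-1, 88.9 and 108 with siZBED2-2, 99.8 and 114 with siFOXA1, 140.4 and 125 with siFOXA1+siZBED2-1 and 109 and 109.8 with siFOXA1+siZBED2-2. In SCaBER it stood at 45.5 and 39.1 CPM, 82.8 and 68.6, 75.7 and 66.8, 106 and 124, 108 and 119, and 109 and 96.3. All libraries with siFOXA1 lay above all 4 libraries with a ZBED2 siRNA alone in SCaBER, and the groups overlapped in RT112. On siFOXA1 the difference over both siRNAs was 0.17 in RT112 (95% interval −0.16 to 0.50) and −0.09 in SCaBER (−0.38 to 0.21).

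PRDX1 (chromosome 1, 45511051 to 45522890) was the raised gene with the smallest change with siZBED2-1 on siControl in both lines. It stood in RT112 at 428 and 479 CPM under siControl, 677 and 563 with siZBED2-1, 752 and 691 with siZBED2-2, 715 and 686 with siFOXA1, 719.6 and 688 with siFOXA1+siZBED2-1 and 721.5 and 746 with siFOXA1+siZBED2-2. In SCaBER it stood at 529 and 525 CPM, 794 and 770.2, 742 and 689.8, 759 and 622, 816 and 873, and 857 and 791. On siFOXA1 the RT112 difference was 0.04 (95% interval −0.18 to 0.26). In SCaBER all 4 double knock-down libraries were above siFOXA1 at a difference of 0.27 (SE 0.10), which missed the threshold (adjusted p 0.115). It passed with the replicate block (0.28, SE 0.08, adjusted p 0.0401) and in DESeq2 (0.27, SE 0.09, adjusted p 0.0414). Without siFOXA1 replicate 1 it rose over both siRNAs (0.42, adjusted p 0.0252) and with siZBED2-1 added (0.44, adjusted p 0.0443).

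LIPH (chromosome 3, 185506262 to 185552588) had the widest range of the 10 genes in RT112 as a ratio of its highest to its lowest level. It stood at 20.2 and 18.2 CPM under siControl, 125.5 and 102 with siZBED2-1, 36.85 and 33.9 with siZBED2-2, 116.5 and 122 with siFOXA1, 132 and 167 with siFOXA1+siZBED2-1 and 110.5 and 114 with siFOXA1+siZBED2-2. The levels under siZBED2-1 alone thus overlapped those under siFOXA1, and the level under siZBED2-2 alone lay between it and siControl without overlap. On siFOXA1 the difference over both ZBED2 siRNAs was 0.12 (95% interval −0.20 to 0.44). In SCaBER LIPH was low throughout, at 6.80 and 6.19 CPM, 12.6 and 9.18, 7.75 and 7.69, 22.0 and 14.7, 10.3 and 8.69, and 6.86 and 11.3 in the same order. Here all 4 double knock-down libraries were below both siFOXA1 libraries, as for 1472 of 13129 genes tested. The difference (log2 −0.98, SE 0.36) was not called (adjusted p 0.130), and its value ran from −1.24 to −0.667 over 16 alternatives.

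YBX3 (chromosome 12, 10699089 to 10723323) had a pattern of its own among the raised genes, higher with the ZBED2 siRNAs and lower with siFOXA1. In RT112 it stood at 139 and 127 CPM under siControl, 286 and 243 with siZBED2-1, 166 and 227 with siZBED2-2, 76.65 and 96.3 with siFOXA1, 133 and 122 with siFOXA1+siZBED2-1 and 123 and 139 with siFOXA1+siZBED2-2. In SCaBER it stood at 291 and 285 CPM, 709.8 and 614, 531 and 475, 195 and 158, 378 and 400.3, and 354 and 337. In both lines siFOXA1 alone held the 2 lowest libraries, the ZBED2 siRNAs alone held the 4 highest, and the double knock-downs lay between. In SCaBER YBX3 rose on siFOXA1 by 1.14 with siZBED2-1 (SE 0.13, adjusted p 3.96e-07) and by 0.97 with siZBED2-2 (SE 0.13, adjusted p 8.37e-06). Over both the rise was 2.08-fold, in 4 of 4 libraries (log2 1.06, SE 0.11, adjusted p 3.06e-07), and it was called under all 16 alternatives (adjusted p at most 1.51e-05). In RT112 the rise over both was 1.49-fold, in 4 of 4 libraries (log2 0.58, SE 0.15, adjusted p 0.0478). With a single siRNA it was 0.56 and 0.60 (adjusted p 0.0904 and 0.0906), and with the replicate block both passed (0.0424 and 0.0394). The RT112 call over both was lost with RLE scaling (adjusted p 0.0524) and without siFOXA1 replicate 1 (0.42, adjusted p 0.278) or 2 (0.75, 0.106), siFOXA1+siZBED2-1 replicate 1 (0.55, 0.063) or siFOXA1+siZBED2-2 replicate 2 (0.53, 0.0962), in a range of adjusted p from 0.0112 to 0.278.

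UBAC1 (chromosome 9, 135932969 to 135961373) separated the ZBED2 siRNAs. In RT112 it stood at 151 and 167 CPM under siControl, 39.85 and 47.1 with siZBED2-1, 106.5 and 106 with siZBED2-2, 81.5 and 79.75 with siFOXA1, 52.05 and 48.95 with siFOXA1+siZBED2-1 and 90.4 and 99.3 with siFOXA1+siZBED2-2. In SCaBER it stood at 155 and 149 CPM, 37.6 and 50.65, 111 and 128, 52.4 and 62.4, 44.6 and 34.35, and 76.6 and 80.4. In both lines the 4 libraries with siZBED2-1 were the lowest of the 12, whether or not siFOXA1 was present, and on siFOXA1 the libraries with siZBED2-2 were above those with siFOXA1 alone. On siFOXA1 UBAC1 fell in RT112 by 0.67 with siZBED2-1 (SE 0.18, adjusted p 0.0364), and its value with siZBED2-2 was 0.23 (SE 0.17, adjusted p 0.6). In SCaBER the values were −0.54 (SE 0.19, adjusted p 0.149) and 0.45 (SE 0.18, adjusted p 0.212). The RT112 call with siZBED2-1 was lost without any 1 of 6 libraries, those of siControl (−0.67, adjusted p 0.0541, and −0.68, 0.0529), siFOXA1 (−0.66, 0.105, and −0.69, 0.133) and siFOXA1+siZBED2-1 (−0.72, 0.0963, and −0.625, 0.272), each given for replicates 1 and 2. Over its 16 alternatives the adjusted p ran from 0.00986 to 0.272. ZBED2 itself was lower with siZBED2-1 than with siZBED2-2 on siFOXA1 in SCaBER (log2 −1.99, SE 0.51, adjusted p 0.0328), and in RT112 that difference was −0.06 (SE 0.95, adjusted p 0.998).

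The ZBED2 siRNAs were compared with each other directly on siFOXA1, for 10 genes in each of the lines, 20 comparisons, with p adjusted over all genes. UBAC1 was lower with siZBED2-1 than with siZBED2-2 in both lines, at 0.533-fold in RT112 (log2 difference −0.91, SE 0.18, adjusted p 0.00526) and at 0.504-fold in SCaBER, where the log2 difference was −0.99 (SE 0.19, adjusted p 0.00264). In each line 1 of 10 genes was thus called, against 1.79% of all genes in RT112 and 1.49% in SCaBER, or 237 and 196 genes, which became 393 and 316 with the replicate block. The RT112 call was lost without siFOXA1+siZBED2-1 replicate 2 (−0.86, adjusted p 0.0821) or siFOXA1+siZBED2-2 replicate 2 (−0.84, 0.0581), and the SCaBER call without siFOXA1+siZBED2-1 replicate 2 (−0.82, 0.113), in ranges of adjusted p from 0.000167 to 0.0821 and from 0.000131 to 0.113. None of the 9 raised genes was called by edgeR or DESeq2, which does not show that the siRNAs act alike on them. The 95% intervals of their differences reached from −0.75 (SKAP2) to 0.78 (LIPH) in RT112 and from −0.81 to 0.95 (both LIPH) in SCaBER. For SKAP2 and LIPH in RT112 the interval of the single gene left out 0, with SKAP2 lower (−0.38, interval −0.75 to −0.01) and LIPH higher (0.41, interval 0.05 to 0.78) with siZBED2-1. The narrowest intervals were those of TPM3, at −0.16 to 0.34 in RT112 and −0.32 to 0.10 in SCaBER.

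**Figure D3:**
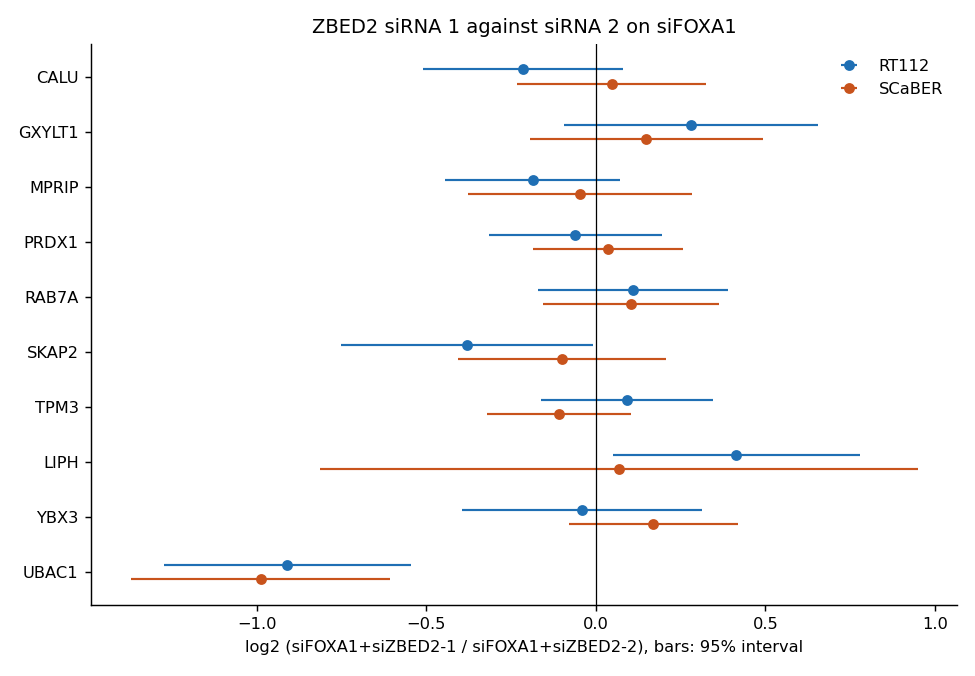
Log2 difference between siFOXA1+siZBED2-1 and siFOXA1+siZBED2-2 for each gene in RT112 and SCaBER, with 95% intervals. UBAC1 lies at −0.91 and −0.99, apart from 0 in both lines, and the intervals of the raised genes span 0 other than SKAP2 and LIPH in RT112.

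The change from ZBED2 siRNA alone to the double knock-down is given beside these values without a test, since the siZBED2 libraries chose the genes. With siZBED2-1 the addition of siFOXA1 went with higher values for 7 of the 9 raised genes in RT112 and 6 in SCaBER, and with siZBED2-2 for 8 in either line. SKAP2 was higher by 0.64 and 0.67 in RT112 and by 0.82 and 0.72 in SCaBER with siZBED2-1 and siZBED2-2, and LIPH in RT112 by 0.40 and 1.67. YBX3 was lower in all 4 of these comparisons, by −1.05 and −0.59 in RT112 and −0.77 and −0.54 in SCaBER. UBAC1 stood with siZBED2-1 and siZBED2-2 at 0.22 and −0.16 in RT112 and −0.16 and −0.61 in SCaBER.

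Levels were then compared between the lines in a fit of all 24 libraries, which compares 2 lines and not subtypes. Of the 10 genes 7 were called, where 65.9% of all genes were. MPRIP was lower in SCaBER (log2 −1.92, SE 0.06, adjusted p 1.41e-24), at 36.3 to 155 CPM with a median of 101.5 against 194 to 497 CPM with a median of 404 in RT112, without overlap. LIPH was lower in SCaBER as well (−2.92, SE 0.11, adjusted p 2.36e-22), with medians of 8.96 and 113 CPM, and YBX3 was higher (1.29, SE 0.06, adjusted p 6.9e-19), with medians of 365 and 136 CPM. TPM3 (0.46) and PRDX1 (0.15) were also higher, and GXYLT1 (−0.26) and UBAC1 (−0.18) lower. The call for UBAC1 (adjusted p 0.0351) held under 11 of 28 alternatives, with values from −0.21 to −0.13 and adjusted p from 0.0163 to 0.187. It was lost with no filter on low counts and without any single library other than replicate 1 of siControl, siZBED2-1 or siFOXA1+siZBED2-2 in RT112, replicate 2 of siZBED2-1, siZBED2-2, siFOXA1 or siFOXA1+siZBED2-2 in SCaBER, or replicate 1 of siFOXA1+siZBED2-1 in SCaBER. CALU, RAB7A and SKAP2 were not called, at 0.09, 0.08 and 0.01. Whether the added ZBED2 siRNAs acted differently in the lines on siFOXA1 was tested as an interaction, and edgeR called none of the 10 genes, where 0.115% of all genes were called and 4 of the 10 had an unadjusted p under 0.05, as had 9.13% of all genes. LIPH had the most distant value (−1.11, 95% interval −1.71 to −0.51, adjusted p 0.157), which DESeq2 called (−1.13, adjusted p 0.0144; range over 28 alternatives 0.0144 to 0.462). The others of the 4 were SKAP2 (−0.50), TPM3 (−0.31) and YBX3 (0.47). A gene called in a single line was therefore not shown to differ between the lines.

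**Figure D4:**
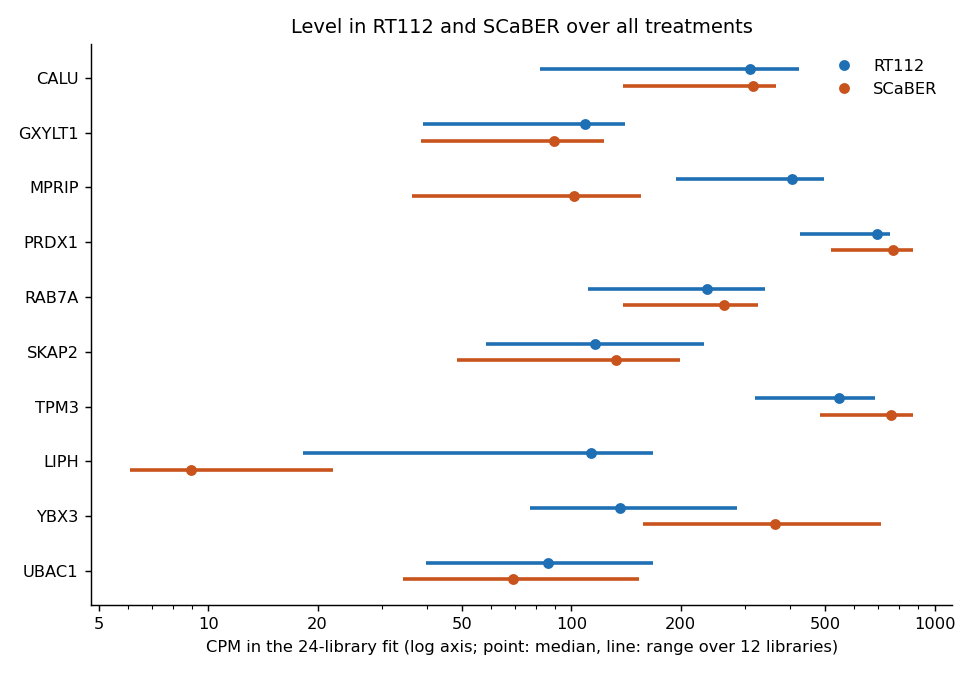
Level of each gene over the 12 libraries of a line in CPM (log axis) from the 24-library fit, with the median as a point and the range as a line. MPRIP at 194 to 497 CPM in RT112 and 36.3 to 155 CPM in SCaBER is the gene whose ranges do not overlap.

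How far the genes moved together was described by Pearson's r of log2 CPM over the 12 libraries of a line, which share their treatments and in part their choice, so that no p is given. Each raised gene other than YBX3 correlated with the mean of the other 8 at 0.793 to 0.965 in RT112, and in SCaBER at 0.814 to 0.97 apart from LIPH (0.393). YBX3 stood at −0.00348 and 0.0613. UBAC1 ran against the mean of the 9, at −0.703 and −0.779. The genes most like that mean in both lines were SON, a nuclear speckle protein (0.925 in RT112 and 0.949 in SCaBER), DDAH1, an enzyme that breaks down methylated arginines (0.873 and 0.93), ST13, an Hsp70 cofactor (0.964 and 0.87), FAM49B (0.869 and 0.964) and CHMP3, a subunit of ESCRT-III (0.855 and 0.915). Most like UBAC1 were RHOBTB3 (0.924 and 0.944), RXRA, a nuclear receptor (0.908 and 0.935) and CKS1B (0.907 and 0.908).

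Partners and relatives of the genes were read from 9 lists of 99 genes in all, 86 of which were tested in RT112 and 88 in SCaBER. With the mean of both ZBED2 siRNAs on siControl 2 of them were called higher and 1 lower in RT112, and 4 and 3 in SCaBER, where 2.37% and 1.83% of all genes were called. The medians over the tested list genes were a log2 of 0.07 and 0.05 against −0.02 over all genes in either line. CKS1B, the partner of the ubiquitin ligase subunit SKP2 in p27 turnover, was lower in RT112 (−0.77, SE 0.14, adjusted p 0.00241) and SCaBER (−0.57, SE 0.11, adjusted p 0.00173), and TXNIP, an inhibitor of thioredoxin, was higher in both (0.55, SE 0.125, adjusted p 0.0153, and 1.21, SE 0.15, adjusted p 4.54e-06). In the actomyosin list MYH14, a non-muscle myosin heavy chain, was called in RT112 (1.05, adjusted p 0.000316), and ACTN1, an actin crosslinker (0.44, adjusted p 0.00102), in SCaBER. LYN, a Src family kinase, rose in SCaBER (0.46, adjusted p 0.0125). All list genes called are named, which goes beyond the naming rule, so TPM2, ACTN1, ACTB, MYL12A, CALD1 and ACTG1 were named after their values were seen. Of the other list members called in SCaBER, ACTB rose (0.30), and SKP2 (−0.61) and TPM2 (−0.56) fell. All these calls against siControl rest on the same control siRNA. MYH14, ACTN1 and TXNIP in SCaBER were called under all 16 alternatives. In RT112 the call for CKS1B was lost without siControl replicate 2 (adjusted p 0.105), and that for TXNIP without siControl replicate 1 (0.154) or 2 (0.133) or siZBED2-1 replicate 2 (0.082). In SCaBER CKS1B was lost without siControl replicate 1 (0.0532), and LYN, TPM2 and SKP2 without either siControl library (adjusted p 0.111 and 0.144, 0.0765 and 0.151, and 0.0602 and 0.589 for replicates 1 and 2). TPM2 was also lost without siZBED2-1 replicate 2 (0.0784), SKP2 and ACTB without either siZBED2-1 library or siZBED2-2 replicate 1 (0.0616 to 0.168), and ACTB without siControl replicate 2 (0.555).

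On siFOXA1 the lists had 3 genes called in RT112, all lower, and 4 higher and 3 lower in SCaBER, where 1.96% and 3.84% of all genes were called, with medians of 0.03 in either line against −0.01 over all genes. TXNRD1, the thioredoxin reductase of the cytosol, fell in RT112 (−0.71, SE 0.19, adjusted p 0.0428) and SCaBER (−0.52, SE 0.13, adjusted p 0.0125), and so did MYL12A, a regulatory light chain of myosin (−0.50, adjusted p 0.0342, and −0.42, adjusted p 0.0464). CKS1B fell in RT112 (−0.61, SE 0.14, adjusted p 0.0247). In SCaBER MYL9, another regulatory light chain, rose (1.05, SE 0.17, adjusted p 0.000154), with RCN2, a relative of CALU (1.43, SE 0.29, adjusted p 0.00193), ACTG1 (0.39) and YBX1, a relative of YBX3 (0.36, SE 0.08, adjusted p 0.00898), while CALD1 fell (−0.37). Without siFOXA1 replicate 2 the calls for TXNRD1 and MYL12A in both lines and for RCN2, YBX1 and CALD1 were lost, with adjusted p of 0.584, 0.245, 0.669, 0.617, 0.129, 0.33 and 0.289 in that order. MYL9 and ACTG1 were called under all 16 alternatives. CKS1B in RT112 was lost without siFOXA1 replicate 1 (adjusted p 0.224) or siFOXA1+siZBED2-1 replicate 2 (0.0624). CALD1 was lost without any 1 of the 6 libraries compared, MYL12A in RT112 without replicate 1 of siFOXA1+siZBED2-1 (0.0521) or siFOXA1+siZBED2-2 (0.0731), and in SCaBER without siFOXA1+siZBED2-1 replicate 2 (0.13) or siFOXA1+siZBED2-2 replicate 1 (0.169). TXNRD1 was lost in RT112 without siFOXA1+siZBED2-1 replicate 2 (0.0539) or siFOXA1+siZBED2-2 replicate 1 (0.109), and in SCaBER without the latter (0.0822). The endosomal list of 21 genes, the Notch glycosylation list of 10 and the lipase and lysophosphatidic acid list of 12 had no gene called by edgeR in either comparison or line. At an unadjusted p under 0.05 they had 2 to 4, 0 to 2 and 0 to 2 genes over the 4 comparisons, where 11.5% to 15.6% of all genes had such a p.

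The promoters of the genes were searched for motifs as a description. The promoter table used here, made from RefSeq (250 bases before to 50 after the start, GRCh38.p14), matched 9 of the 10 genes, all but PRDX1, and gave TPM3 a pair of starts. Each window was searched on both strands for the forkhead motif TGTTTAC, the interferon element core GAAANNGAA, the AP-1 motif TGANTCA, the antioxidant element core TGACNNNGC and the GC box GGGCGG. The AP-1 and antioxidant letters can overlap. None of the first 4 was found in any of the 9 genes, where 3.42%, 8.11%, 7.71% and 13.3% of 35116 promoters hold them, which says only that these letters are not in these windows. GC boxes were found in 7 of the 9 and in 45% of all promoters, and not in SKAP2 and UBAC1. The windows of TPM3 (the upstream start), MPRIP, SKAP2, YBX3 and UBAC1 are shown because these are the 5 genes called on siFOXA1 in at least 1 line, with GC boxes of either strand in capitals. TPM3 holds GC boxes that start at −208 and −22 from the start. MPRIP holds 9 matches between −163 and −8, and those from −32 to −8 overlap in 1 run. YBX3 holds 1 at −63, and SKAP2 and UBAC1 hold none. The windows of SKAP2 and TPM3 lie inside the spans given for these minus-strand genes, which end at 26864590 and 154192100. They are thus at internal starts, and the outermost starts of SKAP2 and TPM3 were not searched.
TPM3 (chr1:154183169-154183468, minus strand): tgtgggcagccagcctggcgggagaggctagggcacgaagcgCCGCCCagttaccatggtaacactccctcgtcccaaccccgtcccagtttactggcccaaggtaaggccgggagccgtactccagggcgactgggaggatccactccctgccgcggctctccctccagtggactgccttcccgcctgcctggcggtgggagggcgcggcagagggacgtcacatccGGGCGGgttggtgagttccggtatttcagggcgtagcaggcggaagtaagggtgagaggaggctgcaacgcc
MPRIP (chr17:17042207-17042506, plus strand): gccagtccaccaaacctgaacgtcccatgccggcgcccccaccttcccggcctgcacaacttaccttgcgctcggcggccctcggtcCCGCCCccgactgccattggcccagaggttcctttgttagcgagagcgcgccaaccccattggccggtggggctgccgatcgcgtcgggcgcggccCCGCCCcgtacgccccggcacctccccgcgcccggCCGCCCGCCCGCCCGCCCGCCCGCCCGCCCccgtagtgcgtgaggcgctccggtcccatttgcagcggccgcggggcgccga
SKAP2 (chr7:26857674-26857973, minus strand): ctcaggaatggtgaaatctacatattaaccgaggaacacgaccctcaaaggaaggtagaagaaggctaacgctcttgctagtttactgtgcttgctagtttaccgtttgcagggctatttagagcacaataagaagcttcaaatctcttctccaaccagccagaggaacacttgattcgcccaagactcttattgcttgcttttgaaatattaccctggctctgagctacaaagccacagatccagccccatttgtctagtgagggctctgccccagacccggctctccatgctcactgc
YBX3 (chr12:10723274-10723573, minus strand): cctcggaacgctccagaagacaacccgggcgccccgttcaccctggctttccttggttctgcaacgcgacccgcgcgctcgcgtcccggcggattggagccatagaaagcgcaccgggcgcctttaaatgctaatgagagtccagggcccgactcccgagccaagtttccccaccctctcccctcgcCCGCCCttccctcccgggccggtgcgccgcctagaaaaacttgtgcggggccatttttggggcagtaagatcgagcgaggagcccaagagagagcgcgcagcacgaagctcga
UBAC1 (chr9:135961324-135961623, minus strand): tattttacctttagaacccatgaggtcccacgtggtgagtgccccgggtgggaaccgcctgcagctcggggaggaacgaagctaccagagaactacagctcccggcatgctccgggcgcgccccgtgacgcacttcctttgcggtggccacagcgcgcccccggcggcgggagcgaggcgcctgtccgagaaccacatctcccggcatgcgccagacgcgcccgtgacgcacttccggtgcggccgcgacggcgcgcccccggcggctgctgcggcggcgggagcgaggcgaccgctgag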

How the data were processed

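The deposited table of raw counts per gene was used, with 1 column for each of the 24 libraries. The authors made oligo-dT 3′ libraries (QuantSeq FWD) and, per the pipeline settings in the labels, ran Raw-qc 2.1.0, trimmed with TrimGalore 0.6.2 (minimum quality 20, minimum length 10), and aligned with STAR 2.6.1a to hg38, where STAR counted reads per gene on GENCODE release 29. Counts per gene then reflect 3′ ends, and no gene was scaled to its length. The authors' TPM table was not used, because length scaling is unsuited to 3′ reads. No unmatched sample column was found. Groups were taken from the labels. So was the genome build, where the study's methods name an earlier build for the RNA-seq. The 10 genes and all lists were chosen with earlier results of these data known, and the naming rule took all 10 genes, up to 2 called genes per list, the genes just outside the rule's limit, and those of most similar pattern.

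Per line, 12 libraries were fitted in edgeR 4.0.16 (R 4.3.3) with TMM scaling, filterByExpr (minimum count 10, total 15) and the quasi-likelihood F-test, with 13264 genes in RT112 and 13129 in SCaBER, and 14823 in a fit of all 24. P-values were adjusted over all genes by Benjamini-Hochberg. Total counts of 4425404 to 6119210 make 3 counts worth 0.49 to 0.678 CPM. Alternatives were RLE scaling, no filter, DESeq2 1.42.0 (the study's tool), the replicate number as a block, and each library left out. The labels give the replicate number as that of an experiment batch, so equal numbers were taken to pair the samples in the block alternative. The main fit holds no term for this pairing. Over the 15 pairs of treatments in a line, deviations of same-numbered libraries correlated at a mean of 0.0336 (RT112) and 0.0259 (SCaBER), with 0 pairs over 0.1. The scripts were tested on simulated data.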

Additional observations from a re-analysis of the deposited data

How the results depend on the processing

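For 240 changes and differences of single genes, 4079 values were recomputed. Of these, 3816 counted as unchanged, 91 lost a call, 15 gained one and 117 with no test moved by more than their spread. A tested value counted as unchanged if it kept its direction and its side of the threshold. A value with no test counted as unchanged if it moved by less than its spread, without regard to the sign of uncalled values. No called value changed sign. With 2 libraries a group, leaving out 1 leaves a single library that is assumed to vary like the other groups. The cause of the changed counts was not tested.

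Among tested values, direction changed for values near 0 that were not called. PRDX1 with siZBED2-1 added in RT112 was −0.005396 with RLE scaling and −0.005429 in DESeq2. With 1 library left out, values with siZBED2-1 added ranged from −0.028 to 0.044 for PRDX1 in RT112, and in SCaBER from −0.031 to 0.182 for RAB7A, −0.052 to 0.186 for SKAP2 and −0.126 to 0.101 for GXYLT1. With siZBED2-2 added they ranged from −0.028 to 0.125 for CALU and −0.066 to 0.130 for GXYLT1 in RT112, and in SCaBER from −0.021 to 0.377 for CALU and −0.130 to 0.083 for RAB7A. For the mean of both they ranged from −0.136 to 0.017 for CALU in RT112, and in SCaBER from −0.081 to 0.132 for RAB7A, −0.00055 to 0.397 for CALU, −0.198 to 0.030 for GXYLT1 and −0.165 to 0.09 for UBAC1. Between the siRNAs they ranged from −0.128 to 0.052 for YBX3 in RT112, and in SCaBER from −0.0079 to 0.095 for CALU, −0.247 to 0.463 for LIPH, −0.167 to 0.053 for MPRIP, −0.030 to 0.094 for PRDX1 and −0.210 to 0.012 for SKAP2. Between the lines SKAP2 ranged from −0.025 to 0.078.

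With no filter on low counts, all genes called in RT112 became 58 with siZBED2-2 on siControl, 324 with siZBED2-2 and 430 with the mean on siFOXA1, 373 between the siRNAs, and 90 for the difference between lines. DESeq2 gave 69, 331 and 396 for the first 3 of these and 123 for the last, and called 2 of the 10 genes with siZBED2-2 and with the mean on siFOXA1 in SCaBER and 1 for the difference between lines. With the replicate block, which changed no other call than those given in the report, RT112 gave 44 genes (siZBED2-2) and 486 (mean) on siControl, 552, 336 and 444 on siFOXA1 (siZBED2-1, siZBED2-2, mean) with 4 of the 10 genes for siZBED2-1, and 393 between the siRNAs. SCaBER gave 125 (siZBED2-2 on siControl), 316 (between the siRNAs) and 3 of the 10 genes for the mean on siFOXA1, and 34 genes were called for the difference between lines.

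With 1 library left out, genes called on siControl ranged from 589 to 1376, 14 to 42 and 74 to 420 in RT112 (siZBED2-1, siZBED2-2, mean), lowest without siControl replicate 2, and from 302 to 725, 34 to 113 and 92 to 309 in SCaBER, lowest without siZBED2-1 replicate 2, siZBED2-2 replicate 1 and siControl replicate 2. On siFOXA1 they ranged in RT112 from 118 to 431, 25 to 439 and 30 to 378, with 0 to 2, 0 to 4 and 0 to 4 of the 10 genes, and in SCaBER from 133 to 423, 217 to 599 and 211 to 583, with 1 to 2, 1 to 1 and 1 to 2 of the 10. The lowest came without replicate 2 of siFOXA1+siZBED2-1 for siZBED2-1 and without siFOXA1 replicate 2 for the others, in both lines. Between the siRNAs they ranged from 89 to 347 in RT112 and 71 to 282 in SCaBER, lowest without siFOXA1+siZBED2-1 replicate 2, with 0 to 1 of the 10 genes in each. Between the lines they ranged from 9622 to 9759 with 6 to 7 of the 10, and for the difference between lines from 3, without SCaBER siFOXA1 replicate 2, to 46.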
